A study of Mus musculus with 21 samples.

Results

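The genes described here are the very long protein-coding genes of the mouse genome that were read in mammary organoids, each spanning 500 kb or more between its outermost annotated ends. They were chosen by span alone among autosomal genes with 10 or more counts in at least 3 of the 18 original libraries, so counts entered the choice as a floor on level. That left 131 genes out of 13718 protein-coding autosomal genes that met the same count floor, or 0.955%. Of 218 autosomal genes of this span, 134 met the floor, 84 did not, and 3 were set aside by name, namely the receptor gene Erbb4, its ligand gene Nrg1 and the cadherin gene Cdh13. The rule also sets collagen genes aside, and it removed no further gene.

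The organoids were grown from primary mouse mammary epithelium and were homozygous for the ATLD1 allele of Mre11 (ATLD) or wild type (WT). Mre11 is a nuclease that works at DNA double-strand breaks, and the allele takes its name from ataxia-telangiectasia-like disorder. Every culture was sampled in relation to activation of neuT, an activated rat form of the Erbb2 receptor kinase used as an oncogene, so the groups are ATLD at day 0, day 14 and day 28 and WT at the same days. Each of the 6 groups had 3 original libraries, and the first replicate of every WT time point has a second sequencing run, made in the batch of the ATLD libraries. The labels give no promoter for neuT, no age and no word on whether each replicate was its own animal. The spread behind every p-value may therefore be technical. There was no culture kept without neuT, so neuT and time in culture cannot be told apart.

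RNA polymerase II must travel the whole span of a gene to make 1 complete transcript, which takes hours for a gene of this size. Such genes depend more than short ones on topoisomerases, which relieve the twisting of DNA ahead of the polymerase, and on elongation factors, which act on the polymerase and the chromatin in its path. Because transcription can still be under way when the same DNA is copied, many of the common fragile sites, stretches that break when replication is slowed, lie inside very long genes. In adult mice the family is best known from neurons, where it supplies synaptic adhesion molecules, ion channels and scaffolds, while some members are used in epithelia.

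The ATLD libraries held 46331204 to 51757203 counts, the resequenced WT libraries 46532851 to 48887808 and the original WT libraries 30905703 to 50879106. Mre11a, the mouse gene of Mre11, was at 14.1 to 17.1 CPM (counts scaled to a library of 1000000) in the ATLD libraries and at 43.3 to 58.6 CPM in the original WT libraries. Pan-epithelial markers (Epcam, Krt8, Krt18 and Cdh1) summed to 4000 to 5172 CPM in ATLD and 1706 to 2948 CPM in WT libraries, and immune markers to less than 1 CPM. WT day 14 replicates 1 and 3 and WT day 28 replicate 2 had lower counts of GC-rich genes than the other libraries. Bulk RNA cannot tell fewer cells of a type from less RNA per cell.

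Their median span was 689.2 kb, against 23.7 kb for the other genes, a contrast that the choice by span fixed. The longest stretch without an exon, with a median of 199.4 kb against 6.66 kb, and the share of the span in exons, with a median of 1.53% against 18.8%, largely follow from that choice. The rule did not use the summed exon length, which had a median of 11350 bases, against 4348. The median GC content of the transcripts was 48.0%, against 50.6%. A median of 4 other genes lay inside the span of a long gene. Exonic bases were shared with another gene in 53 of the 131, and more than 10% of them were shared in Gm37240, Fars2, Schip1 and Atp8a2, whose counts are therefore uncertain.

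The span came from all annotated transcripts, and for a few genes it is far longer than the main form. In RefSeq, 123 of 130 matched genes also span 500 kb or more and 7 do not. Fgfr2, a fibroblast growth factor receptor, spans 2961 kb in the count table's annotation and 104 kb in RefSeq. Slc7a11, the cystine-glutamate exchanger, spans 551 kb against 134 kb, and Rasgef1b, a Ras exchange factor, 512 kb against 35.5 kb. The others are Ntrk3, Fars2, Atp8a2 and Ank3. Of the genes near the limit, Edil3 was just inside at 501.8 kb and Pde1c just outside at 499.3 kb. Both were higher in WT at the later days, with log2 changes at day 14 of 2.01 for Edil3 and 1.86 for Pde1c.

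Most long genes were read at low levels. Their median level was 0.736 RPKM (CPM per kilobase of exon), against 6.04 RPKM for the other genes, and 39 of the 131 averaged less than 1 CPM. In 12 of the 131, only 3 to 6 original libraries had 10 or more counts. The groups where such a gene was high could thus decide its choice. The highest on the per-length scale was Gmds, which makes GDP-fucose precursors, at 19.7 RPKM. Pde4b, a cyclic AMP phosphodiesterase, was at 19.3 RPKM, and Ptprk, a receptor tyrosine phosphatase of cell contacts, at 18.6 RPKM. Etl4 was at 16.8 RPKM, Exoc4, a subunit of the exocyst that tethers secretory vesicles, at 12.9 RPKM, and Lpp, a focal adhesion protein, at 12.8 RPKM. The least abundant was Ryr3, a calcium release channel, at 0.00718 RPKM.

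Promoter windows from RefSeq (GRCm38.p6) matched 106 of the 131 genes, 63 of them with a single window. The windows of 300 bases held a median of 12 CpG dinucleotides, against 7 for all genes, and 57.7% GC, against 52.7%. The AP-1 motif TGANTCA, read on both strands, was in 5.09% of the windows of long genes and in 7.81% of all windows. The hypoxia core motif ACGTG was in 15.8% against 19.6%, and TATAAA in 9.61% against 13.6%. The 250 bases before the start site are shown for 3 of the genes with a single window that differ between the genotypes as described below, on the gene's own strand, with CpG dinucleotides in capitals. Hpse2 lies at chr19:43388356-43388605 (minus strand), Mdga2 at chr12:67222550-67222799 (minus strand) and Inpp4b at chr8:81342312-81342561 (plus strand).
Hpse2: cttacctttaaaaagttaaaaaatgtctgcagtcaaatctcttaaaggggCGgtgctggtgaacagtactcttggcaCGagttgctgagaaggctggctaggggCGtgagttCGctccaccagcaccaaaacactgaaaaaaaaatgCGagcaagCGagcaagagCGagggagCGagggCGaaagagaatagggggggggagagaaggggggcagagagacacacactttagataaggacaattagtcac
Mdga2: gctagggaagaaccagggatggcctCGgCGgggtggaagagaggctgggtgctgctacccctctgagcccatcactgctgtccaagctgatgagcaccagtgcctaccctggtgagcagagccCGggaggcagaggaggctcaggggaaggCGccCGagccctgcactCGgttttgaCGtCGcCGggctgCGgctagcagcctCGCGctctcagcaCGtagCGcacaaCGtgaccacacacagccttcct
Inpp4b: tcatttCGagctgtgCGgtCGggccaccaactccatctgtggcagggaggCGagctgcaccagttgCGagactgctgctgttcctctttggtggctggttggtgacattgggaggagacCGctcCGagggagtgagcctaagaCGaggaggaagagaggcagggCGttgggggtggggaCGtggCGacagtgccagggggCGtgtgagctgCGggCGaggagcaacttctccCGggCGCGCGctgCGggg
The stretch of Hpse2 holds 9 CpG dinucleotides, that of Mdga2 15 and that of Inpp4b 19. The ACGTG core occurs 2 times in the Mdga2 stretch and 1 time in the Inpp4b stretch, and neither AP-1 nor TATAAA letters occur in any of the 3.

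In WT organoids, many long genes fell after neuT was switched on. Of 130 long genes tested at day 14 against day 0, 53 fell and 27 rose, 40.8% and 20.8% of them, where 15.1% of all 18684 genes tested were called lower and 15.2% higher (edgeR quasi-likelihood test, adjusted p under 0.05 over all genes). In either direction 61.5% of the long genes were called, against 30.3% of all genes. Their median log2 change was -0.24, against 0.01 for all genes. At day 28 against day 0, 49 fell and 23 rose, 37.7% and 17.7%, against 12.4% and 12.3% of all genes. The median was -0.26, against 0.02. The long genes called lower at both days numbered 46 and those called higher at both days 21, which was not counted over all genes. These comparisons share the day 0 libraries. WT libraries of the later and the first day did not overlap for 97 of the long genes tested (74.6%) at day 14, against 42.5% of all genes, and for 96 (73.8%) at day 28, against 42.1%.

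The share of genes called lower in WT climbed with span over all protein-coding autosomal genes. At day 14 it was 14.0% below 10 kb, 15.1% from 10 to 50 kb, 17.3% from 50 to 100 kb, 21.8% from 100 to 200 kb and 30.0% from 200 to 500 kb. The share called higher moved less, between 15% below 10 kb and 20.8% at 500 kb or more. Level differs between these classes, so the shares were also taken within classes of mean log2 CPM. Under a log2 CPM of 1, 44.4% of 45 long genes fell, against 13.6% of the other genes. Between 1 and 4, 54.1% of 37 fell, against 22.1%, and at 4 or more, 27.1% of 48 fell, against 13.2%. The part of cell composition in these shares was not tested.

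**Figure D1:**
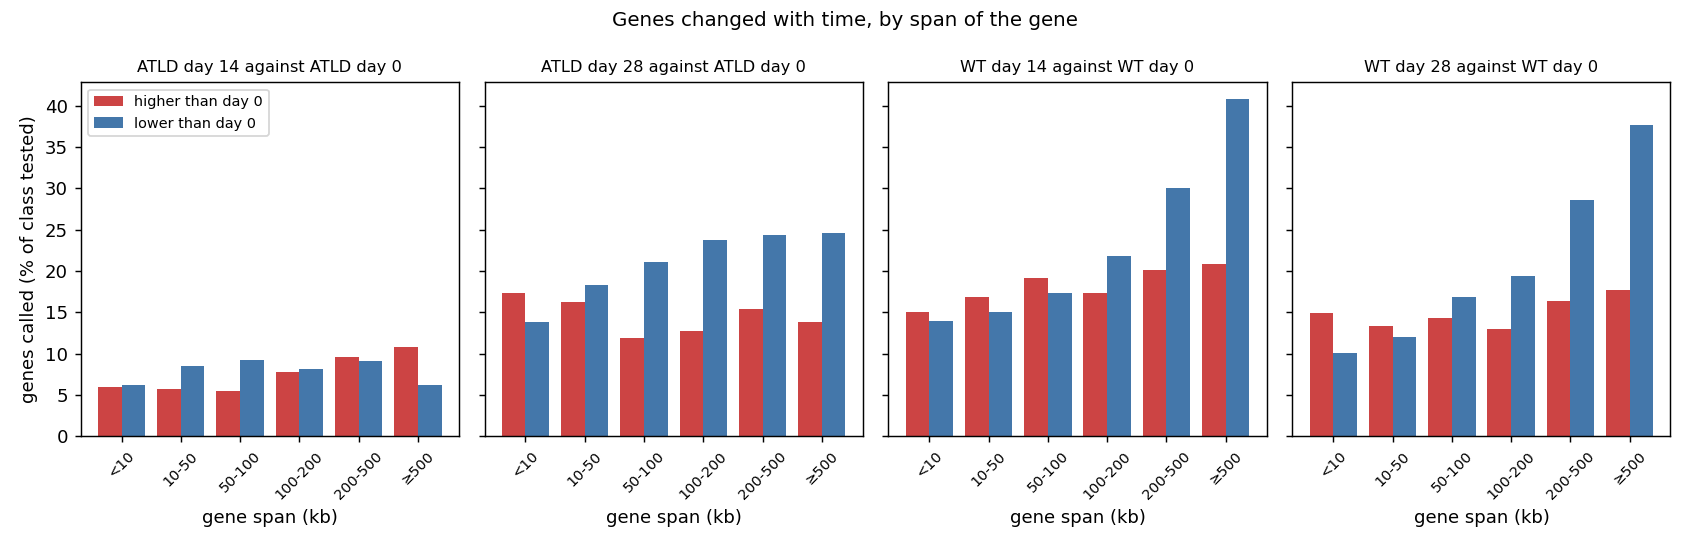
Percent of protein-coding autosomal genes called higher (red) or lower (blue) than day 0 in each class of gene span in kb, for ATLD and WT at day 14 and day 28 (edgeR, adjusted p under 0.05). In WT the blue bars climb to 40.8% at day 14 and 37.7% at day 28 in the class of 500 kb or more, and in ATLD the corresponding bars stand at 6.15% and 24.6%.

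Among the factors that act on transcription and RNA, 5 of 17 fell and 3 rose in WT at day 14, with the same counts at day 28. The 29.4% that fell compares with 15.1% of all genes and 40.8% of all long genes at day 14. Celf2, an RNA-binding regulator of splicing (ENSMUSG00000002107, mm10 chromosome 2, 6539694 to 7509563, minus strand), was at 94.0, 88.5 and 86.5 CPM in WT at day 0, at 16.3, 14.1 and 16.1 CPM at day 14 and at 12.3, 13.7 and 11.8 CPM at day 28. The later libraries all lay far below those of day 0. The log2 change was -2.53 ± 0.11 (SE) at day 14 (adjusted p = 9.3e-12), with -2.83 ± 0.11 at day 28 (adjusted p = 5.0e-12).

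Esrrg, a nuclear receptor of the estrogen-related family that drives oxidative metabolism genes (ENSMUSG00000026610, chromosome 1, 187608791 to 188214885, plus strand), had 7.57, 6.44 and 7.62 CPM in WT at day 0, 0.586, 0.306 and 0.358 CPM at day 14 and 0.464, 0.603 and 0.422 CPM at day 28. Its level at the later days was thus below 1 CPM in every WT library. It fell by 4.08 ± 0.22 on the log2 scale at day 14 (adjusted p = 2.6e-10) and by 3.87 ± 0.22 at day 28 (adjusted p = 6.5e-10). Npas3, a transcription factor known from the brain, fell by 3.13 ± 0.20 at day 14, and Mecom, the locus of the Evi1 factor of blood stem cells, by 2.77 ± 0.27.

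Of 31 adhesion molecules and surface receptors tested, 16 were lower and 6 higher in WT at day 14, with a median log2 change of -0.67. That is 51.6% lower, against 15.1% of all genes and 40.8% of all long genes, and no difference between the roles was tested. Kirrel3, a nephrin-like adhesion protein, fell by 2.39 ± 0.28 at day 14. Sema6d, a semaphorin of axon guidance, was at 11.6, 9.73 and 11.6 CPM in WT at day 14, against 32.3, 28.7 and 30.9 CPM at day 0. Mdga2, which binds neuroligins at synapses, had 3 counts in the day 14 libraries and 1 count in the day 28 libraries together, against 25 counts at day 0. Its level at day 14 was 9.32 times lower than at day 0, with a 95% exact counting interval of 2.84 to 48.2 times, which covers counting error only. Ptprk, the abundant phosphatase, fell by 0.61 ± 0.16 at day 14 (adjusted p = 0.0089) and by 0.62 ± 0.16 at day 28 (adjusted p = 0.0088).

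Not all adhesion genes fell in WT. The Slit receptor Robo1, which guides axons and also acts in epithelia, rose. Robo1 (ENSMUSG00000022883, chromosome 16, 72308306 to 73046095, plus strand) had 58.7, 60.8 and 63.8 CPM in WT at day 0, 127, 134 and 128 CPM at day 14 and 113, 110.2 and 115 CPM at day 28. Its log2 change was 1.08 ± 0.21 at day 14 (adjusted p = 0.00074), with 0.88 ± 0.21 at day 28 (adjusted p = 0.0044). The WT libraries of day 0 and of the later days did not overlap.

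The deepest fall at WT day 14 of a long gene with a mean of 1 CPM or more belonged to a secreted protein. Hpse2 encodes heparanase 2, a relative of heparanase that binds heparan sulfate without cutting it (ENSMUSG00000074852, chromosome 19, 42786539 to 43388355, minus strand). It was at 2.75, 2.59 and 2.96 CPM in WT at day 0, at 0.128, 0.118 and 0.0631 CPM at day 14 and at 0.209, 0.192 and 0.211 CPM at day 28. The log2 change was -4.70 ± 0.20 at day 14 (adjusted p = 1.1e-11), with -3.74 ± 0.18 at day 28 (adjusted p = 8.3e-11).

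Of 31 signalling enzymes and receptors, 13 were lower and 6 higher in WT at day 14, 41.9% and 19.4%, close to the 40.8% and 20.8% of all long genes. They include the steepest rise among long genes with a mean of 1 CPM or more. Prkg1, the cyclic GMP-dependent kinase (ENSMUSG00000052920, chromosome 19, 30564489 to 31765033, minus strand), had 1.06, 0.882 and 1.02 CPM in WT at day 0, 11.8, 7.495 and 13.1 CPM at day 14 and 15.5, 17.4 and 12.7 CPM at day 28. It rose by 3.44 ± 0.24 at day 14 (adjusted p = 5.3e-09) and by 3.93 ± 0.24 at day 28 (adjusted p = 1.4e-09) on the log2 scale. Day 14 replicate 2, the WT day 14 library without the GC trend, was the lowest of its group, and still stood above every day 0 library.

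Inpp4b, a phosphatase that removes a phosphate from a PI3-kinase lipid product (ENSMUSG00000037940, chromosome 8, 81342556 to 82127914, plus strand), rose in WT as well. It had 3.55, 3.88 and 3.79 CPM at day 0, 29.6, 24.1 and 26.7 CPM at day 14 and 17.9, 26.5 and 20.6 CPM at day 28. The log2 change was 2.84 ± 0.25 at day 14 (adjusted p = 8.8e-08), with 2.54 ± 0.25 at day 28 (adjusted p = 4.2e-07). Ntrk3, the receptor of neurotrophin 3, was at 10.2, 8.06 and 9.53 CPM in WT at day 14, against 2.02, 1.85 and 1.71 CPM at day 0.

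Other rises in WT came from genes of mixed roles. Slc7a11, the cystine importer that supplies glutathione synthesis, was at 12.7, 8.18 and 12.5 CPM at day 14, against 2.40, 2.12 and 2.10 CPM at day 0. Edil3, a secreted integrin-binding protein, rose by 2.01 ± 0.17 at day 14 and by 1.74 ± 0.17 at day 28. Etl4, among the most abundant long genes, was at 452, 416 and 475 CPM at day 14 and at 501, 504 and 513 CPM at day 28, against 172, 168 and 169 CPM at day 0. Dlgap1, a scaffold protein of synapses, rose by 2.60 ± 0.24 at day 14, to no more than 2.29 CPM in any day 14 library. Scaffold, polarity and cytoskeleton genes as a group had 8 of 19 lower and 3 higher in WT at day 14, or 42.1% lower, against 40.8% of all long genes.

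In ATLD organoids the same stretch of time moved fewer long genes. At day 14 against day 0, 14 of 130 rose and 8 fell, 16.9% in all, where 11.7% of all genes were called, 5.18% higher and 6.49% lower. At day 28, 18 rose and 32 fell, 38.5% in all, where 29.8% of all genes were called, 14.1% higher and 15.7% lower. Libraries of the later and the first ATLD day did not overlap for 39 long genes (30.0%) at day 14, against 27.5% of all genes, and for 55 (42.3%) at day 28, against 44.4%. The median log2 change was -0.05 at day 14, against -0.03 for all genes, and -0.25 at day 28, against -0.02. The share called lower at day 28 was 24.6%, and it was 24.4% for genes of 200 to 500 kb and 23.7% for those of 100 to 200 kb. At day 14, 18.7% of genes of 200 to 500 kb and 15.9% of those of 100 to 200 kb were called. Under a mean log2 CPM of 1, 22.2% of long genes were called at day 14, against 7.76% of the other genes. From 1 to 4 the shares were 18.9% and 19.1%, and at 4 or more 10.4% and 11.6%. With counts corrected for GC content, 36 of 130 long genes were called at day 14, 24 of them higher, and the share of all genes called was then larger too. Among the 31 genes of 1 Mb or more, 2 were called at day 14, or 6.45%, against 11.7% of all genes.

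Teneurins, large transmembrane proteins that bind latrophilins on neighbouring cells, were among the deepest falls in ATLD. Tenm4 (ENSMUSG00000048078, chromosome 7, 96171246 to 96911093, plus strand) was at 26.7, 17.8 and 9.75 CPM in ATLD at day 0, at 10.4, 6.13 and 7.49 CPM at day 14 and at 1.93, 2.53 and 4.89 CPM at day 28. The day 0 replicates differed among themselves by more than 2-fold, and the lowest of them lay inside the range of day 14 but above every day 28 library. The log2 change was -2.54 ± 0.34 at day 28 (adjusted p = 2.3e-05). In WT, Tenm4 was at 47.005, 48.1 and 54.1 CPM at day 0 and at 79.9, 63.7 and 79.5 CPM at day 28, a change of 0.58 ± 0.31 that did not pass the test (adjusted p = 0.20).

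Of the 31 adhesion genes, 12 fell in ATLD at day 28, 3 rose and 16 were not called. The 38.7% that fell compares with 15.7% of all genes and 24.6% of all long genes. Sdk1, an immunoglobulin-type adhesion protein, was at 7.08, 4.85 and 2.18 CPM at day 0, at 1.49, 0.743 and 1.15 CPM at day 14 and at 0.432, 0.403 and 0.659 CPM at day 28. Its groups did not overlap, and it fell by 3.24 ± 0.42 at day 28 (adjusted p = 1.6e-05). Robo1 was at 60.3, 43.0 and 34.9 CPM at day 0, at 39.2, 27.9 and 26.0 CPM at day 14 and at 11.1, 14.1 and 21.5 CPM at day 28. It fell by 1.56 ± 0.22 at day 28 (adjusted p = 3.4e-05), whereas its change at day 14 did not pass the test (adjusted p = 0.10).

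Dlg2, Dlgap1 and Hpse2 were among the largest rises in ATLD, and Dlgap1 rose in both genotypes. Dlg2, a membrane scaffold of synapses (ENSMUSG00000052572, chromosome 7, 90476672 to 92449247, plus strand), had 2.001, 1.53 and 1.23 CPM at day 0, 5.48, 6.395 and 5.31 CPM at day 14 and 3.75, 3.29 and 3.43 CPM at day 28. It rose by 1.85 ± 0.20 at day 14 (adjusted p = 8.0e-06) and by 1.14 ± 0.20 at day 28 (adjusted p = 0.00035). Hpse2 was at 7.03, 5.95 and 6.10 CPM at day 0, at 11.2, 14.3 and 12.2 CPM at day 14 and at 15.9, 16.4 and 15.97 CPM at day 28, with no overlap between the days. Its log2 change was 0.99 ± 0.13 at day 14 (adjusted p = 4.4e-05), with 1.34 ± 0.13 at day 28 (adjusted p = 4.7e-07).

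Some ATLD changes were seen at a single day. Cdk14, a cyclin-dependent kinase, was at 24.5, 17.9 and 17.7 CPM at day 0, at 35.6, 32.3 and 30.7 CPM at day 14 and at 16.8, 20.8 and 22.7 CPM at day 28. Rasgef1b was at 3.26 ± 0.263 CPM at day 0, at 6.87 ± 0.236 CPM at day 14 and at 3.57 ± 0.406 CPM at day 28 (SD, n = 3 each). The log2 change at day 14 was 0.72 ± 0.16 for Cdk14 (adjusted p = 0.0053) and 1.07 ± 0.12 for Rasgef1b (adjusted p = 7.5e-06), and at day 28 neither passed (adjusted p = 0.98 and adjusted p = 0.43). A830018L16Rik was lowest at day 28, with 9.35 ± 0.829 CPM at day 0, 7.29 ± 0.679 CPM at day 14 and 1.40 ± 0.113 CPM at day 28. Day 28 was not compared with day 14.

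ATLD replicates differed from each other in the share of counts in long genes. Long genes took 0.423%, 0.327% and 0.314% of the counts in the ATLD libraries at day 0, 0.390%, 0.327% and 0.299% at day 14 and 0.252%, 0.305% and 0.348% at day 28. In WT they took 0.555%, 0.541% and 0.550% at day 0, 0.552%, 0.490% and 0.557% at day 14 and 0.522%, 0.564% and 0.526% at day 28. The SD was 0.0592 percentage points in ATLD and 0.00692 in WT at day 0, 0.0465 and 0.0372 at day 14, and 0.048 and 0.0236 at day 28, so the genotypes were closer at day 14. At ATLD day 0, replicate 1 was the highest library for 68.7% of the long genes and for 41.2% of the other genes. At ATLD day 28, replicate 1 was the lowest for 70.8% of the long genes and for 36.2% of the others. Without single replicates, the share of long genes called at ATLD day 28 lay between 27.7% and 40.8%.

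The difference between the genotypes in their change from day 0 was tested directly. At day 14 the ATLD change exceeded the WT change for 40 of 130 long genes and fell short of it for 18, 44.6% in all, against 21.3% of all genes (10.8% higher and 10.6% lower). At day 28 the counts were 41 and 24, or 65 of 130 in all, against 27.5% of all genes (13.5% higher and 14.0% lower). Of protein-coding autosomal genes of 200 to 500 kb, 41.2% were called at day 14 and 44.5% at day 28. The excess over all genes was thus not particular to the long genes. In 34 long genes the difference was positive at both days and in 16 it was negative at both, which was not counted over all genes. The median difference was 0.15 at day 14, against -0.04 for all genes, and 0.10 at day 28, against -0.05. A constant log-scale difference between sequencing batches cancels in this contrast, but one that varies between libraries or days does not. With the resequenced run in place of the original for WT replicate 1, the median difference was 0.23 at day 14 and 0.05 at day 28. For all genes it was then -0.05 and -0.03.

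**Figure D2:**
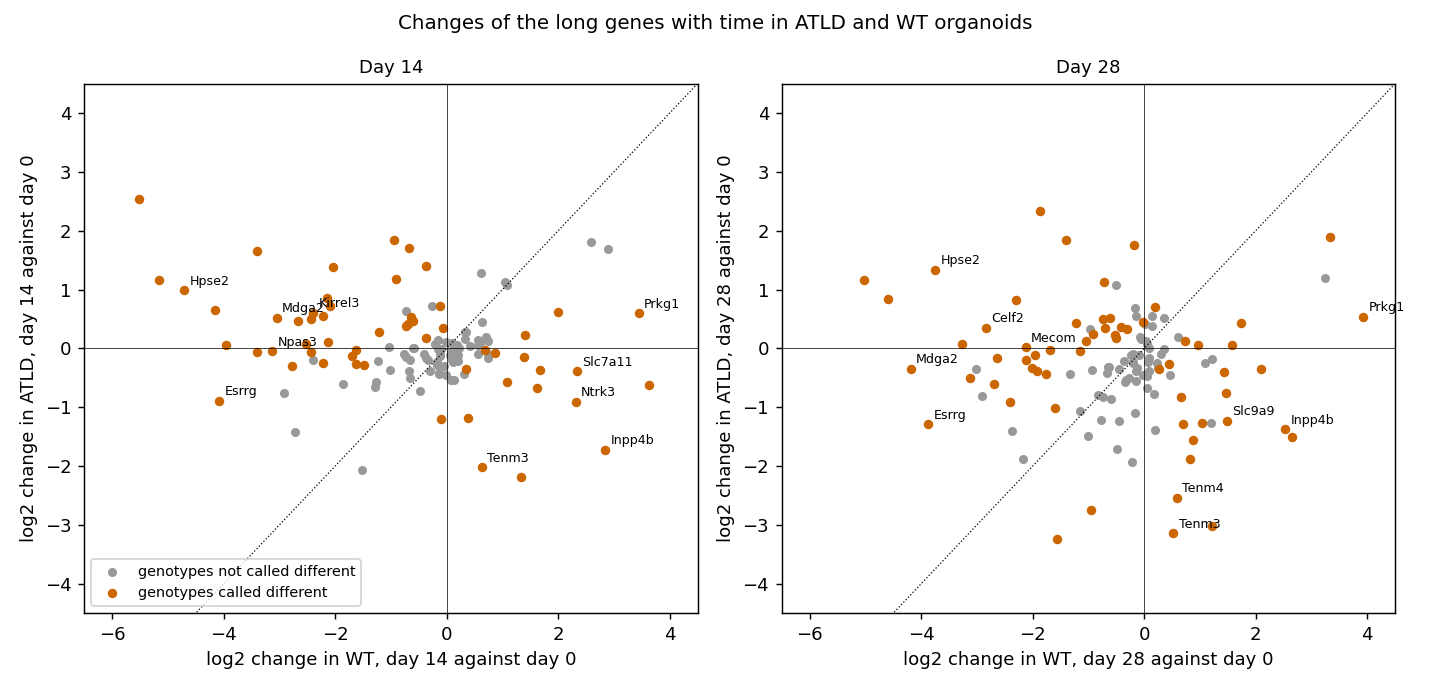
Log2 change from day 0 in ATLD (vertical) against the same in WT (horizontal) at day 14 and day 28 for 125 and 124 of the long genes with counts in every group compared; orange points had a genotype by time difference with an adjusted p under 0.05 and the dotted line marks equal change. Hpse2 stands at the upper left of both panels, Inpp4b at the lower right, and Tenm3 and Tenm4 below the horizontal line at day 28.

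Hpse2 had the largest positive difference at both days among genes above a mean of 1 CPM, 5.69 ± 0.24 at day 14 (adjusted p = 2.5e-11), with 5.08 ± 0.22 at day 28 (adjusted p = 3.5e-11). It rose in ATLD and fell in WT. Celf2 was at 122, 117 and 121 CPM in ATLD at day 0, at 133, 131 and 117 CPM at day 14 and at 133, 162 and 165 CPM at day 28, so its fall in WT had no counterpart there. Its difference was 2.61 ± 0.14 at day 14 (adjusted p = 5.3e-10), with 3.19 ± 0.15 at day 28 (adjusted p = 5.7e-11).

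Esrrg fell in both genotypes but less in ATLD. It was at 19.1, 17.1 and 15.5 CPM in ATLD at day 0, at 11.04, 9.01 and 7.95 CPM at day 14 and at 5.76, 7.47 and 7.88 CPM at day 28. The difference between the genotypes in its change was 3.19 ± 0.28 at day 14 (adjusted p = 1.8e-07). Npas3 and Mecom, the other 2 factors named above, differed by 3.08 ± 0.26 and 2.48 ± 0.36 at day 14. Npas3 stayed at 5.83 to 7.43 CPM in the ATLD day 14 libraries, against 5.02 to 8.56 CPM at ATLD day 0.

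Inpp4b had the largest negative difference among the same genes, -4.56 ± 0.37 at day 14 (adjusted p = 5.6e-08), with -3.91 ± 0.36 at day 28 (adjusted p = 2.7e-07). In ATLD it was at 3.81, 3.25 and 2.71 CPM at day 0, at 0.931, 0.856 and 1.18 CPM at day 14 and at 0.592, 1.74 and 1.41 CPM at day 28. The gene thus fell in ATLD below every day 0 library of both genotypes, while in WT it rose above them. Ntrk3, at 0.374 to 0.516 CPM in ATLD at day 0, differed by -3.22 ± 0.42 at day 14, and Slc7a11 by -2.72 ± 0.27. Prkg1 was at 5.42, 4.60 and 5.48 CPM in ATLD at day 0 and at 9.36, 7.45 and 6.75 CPM at day 14, and its difference was -2.84 ± 0.31.

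At day 28, 16 long genes were called in both genotypes with opposite signs, 7 of them lower in WT and higher in ATLD and 9 the reverse. The first set held Hpse2 and Celf2. The second held Inpp4b, Robo1, Rad51b and Slc9a9, an endosomal sodium-proton exchanger. Another 11 genes fell in both, among them Esrrg, Npas3 and Sdk1, and 2 rose in both. These sets describe calls, and each gene's difference has its own test. The same sets were not counted over all genes, so their sizes cannot be read as particular to long genes.

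**Figure D3:**
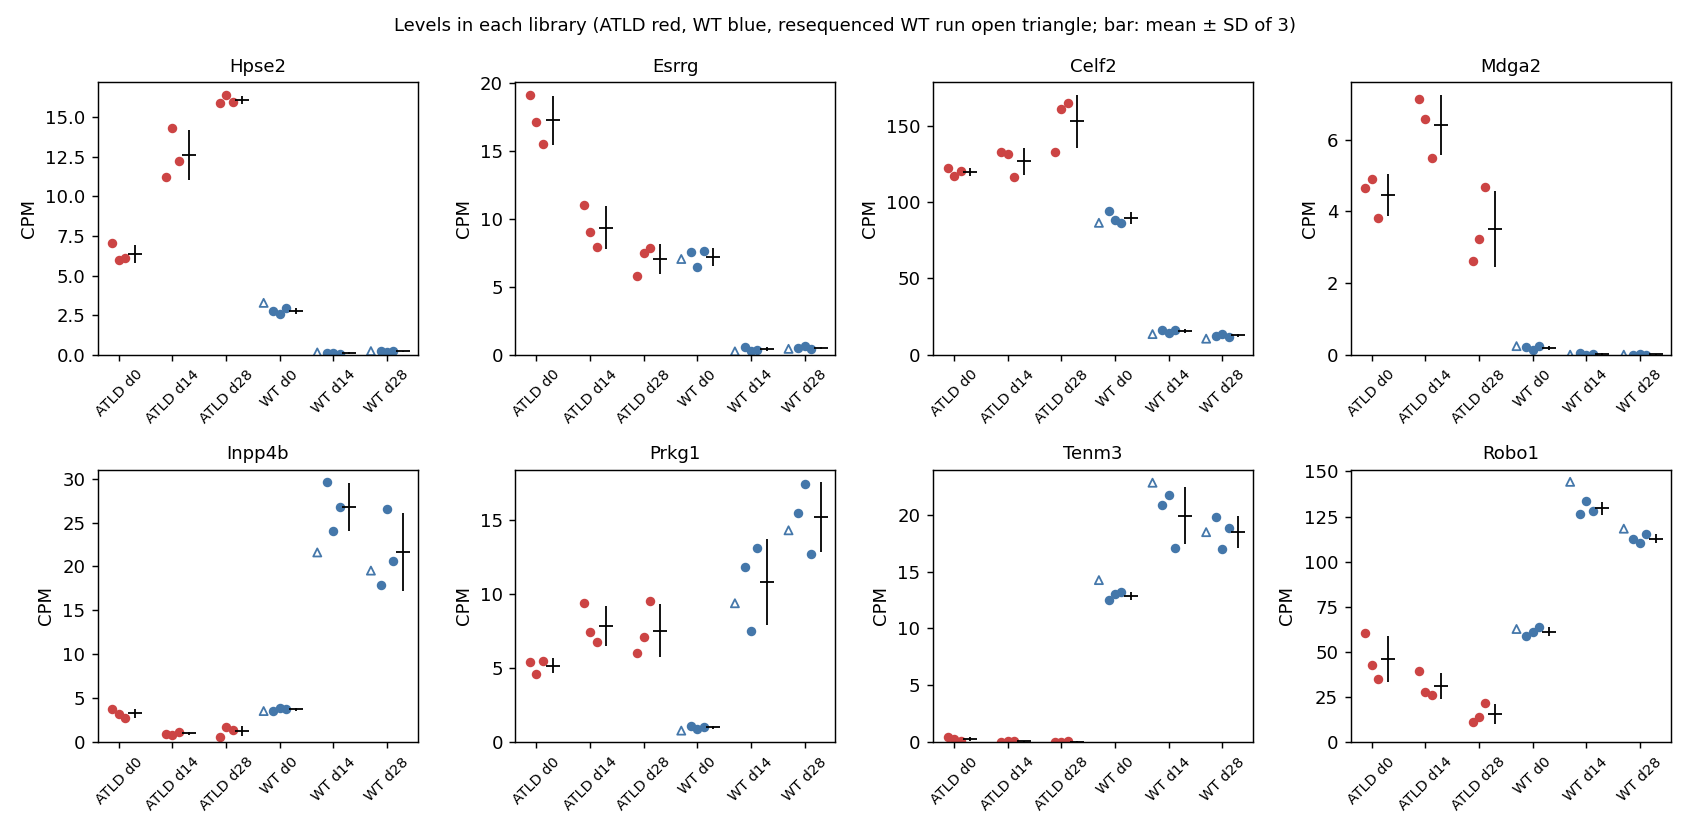
CPM in each library for 8 long genes, with ATLD in red and WT in blue at day 0, day 14 and day 28; bars give mean ± SD of the 3 original libraries and open triangles the resequenced WT runs. Hpse2, Esrrg, Celf2 and Mdga2 are near 0 or far down in WT after day 0, and Inpp4b, Tenm3 and Robo1 are high in WT and low in ATLD there.

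Between the genotypes at a fixed day, long genes differed in both directions. The fits of ATLD against WT used all 21 libraries with a term for the sequencing batch. Each resequenced run entered as a library of its own, with no term for the culture that it shares with an original run. Those WT cultures were thus counted more than once, and the p-values of these fits may be too small. At day 0, 25 of 130 long genes were higher in ATLD and 55 lower, 61.5% in all, where 55.6% of all 18844 genes tested were called, 26.1% higher and 29.5% lower. That count depends on 1 culture, WT day 0 replicate 1, whose resequenced run was the only WT day 0 run in the ATLD batch. Without both of its runs, 50 of 130 (38.5%) were called, and the share of all genes was then 36.0%. The day 0 comparison then took its batch term from day 14 and day 28 alone. At day 14, 50 were higher and 51 lower, 77.7% against 65.1% of all genes (30.1% higher and 35.0% lower). At day 28, 46 were higher and 57 lower, 79.2% against 64.2% (29.3% higher and 34.9% lower). Of protein-coding autosomal genes of 200 to 500 kb, 63.4% were called at day 0, 76.8% at day 14 and 77.2% at day 28. These shares lay close to those of the long genes, so the excess over all genes was not particular to them. ATLD and original WT libraries did not overlap for 85 long genes (65.4%) at day 0, 101 (77.7%) at day 14 and 107 (82.3%) at day 28, against 72.0%, 70.7% and 74.4% of all genes. Higher at each of the 3 days were 19 long genes and lower at each 32, and 11 and 25 with the day 0 calls taken without WT day 0 replicate 1. The same was not counted over all genes, so these numbers cannot be read as particular to long genes. At day 0, the median log2 difference was -0.41 for the long genes and -0.04 for all genes.

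A correction for GC content moved the median of all genes in these fits to 0.14 at day 0, 0.12 at day 14 and 0.17 at day 28. Relative to it, the long genes had a median of -0.39 at day 0, -0.01 at day 14 and -0.12 at day 28, against -0.37, 0.03 and -0.11 without the correction.

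Among genes with a mean of 1 CPM or more, Tenm3 differed most. It was at 0.452, 0.271 and 0.132 CPM in ATLD and at 12.5, 13.002 and 13.2 CPM in WT at day 0 (ENSMUSG00000031561, chromosome 8, 48227682 to 48843951, minus strand). At day 28 the 3 ATLD libraries held 4 counts together and the WT libraries 2363. The log2 difference was -5.60 ± 0.27 at day 0 (adjusted p = 1.7e-11), with -8.26 ± 0.32 at day 14 (adjusted p = 1.4e-13). Tenm2 was at 6.67, 3.70 and 1.87 CPM in ATLD and at 15.6, 17.7 and 18.02 CPM in WT at day 0, and differed by -2.29 ± 0.44 (adjusted p = 0.00029). Tenm4 differed by -1.67 ± 0.33 at day 0 and by -4.79 ± 0.36 at day 28. All 3 teneurins among the long genes were thus lower in ATLD at every day.

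Mdga2 differed most in the other direction among the same genes. It was at 4.65, 4.92 and 3.81 CPM in ATLD at day 0, at 7.14, 6.58 and 5.497 CPM at day 14 and at 2.62, 3.23 and 4.68 CPM at day 28. In WT its highest library at any day was at 0.238 CPM, counting the resequenced runs. The ratio of ATLD to WT was 23.0 at day 0, from 607 and 25 counts. At day 14 it was 310 with a 95% exact counting interval of 106 to 1504. Esrrg was higher in ATLD by 1.42 ± 0.22 at day 0 and by 4.78 ± 0.26 at day 14, and Hpse2 by 0.96 ± 0.16 and 6.59 ± 0.20 (adjusted p = 6.6e-05 and adjusted p = 3.9e-15). The day 0 call of Hpse2 was lost without WT day 0 replicate 1, at 0.94 ± 0.31 (adjusted p = 0.059). A830018L16Rik was higher by 3.40 ± 0.28 at day 0.

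**Figure D4:**
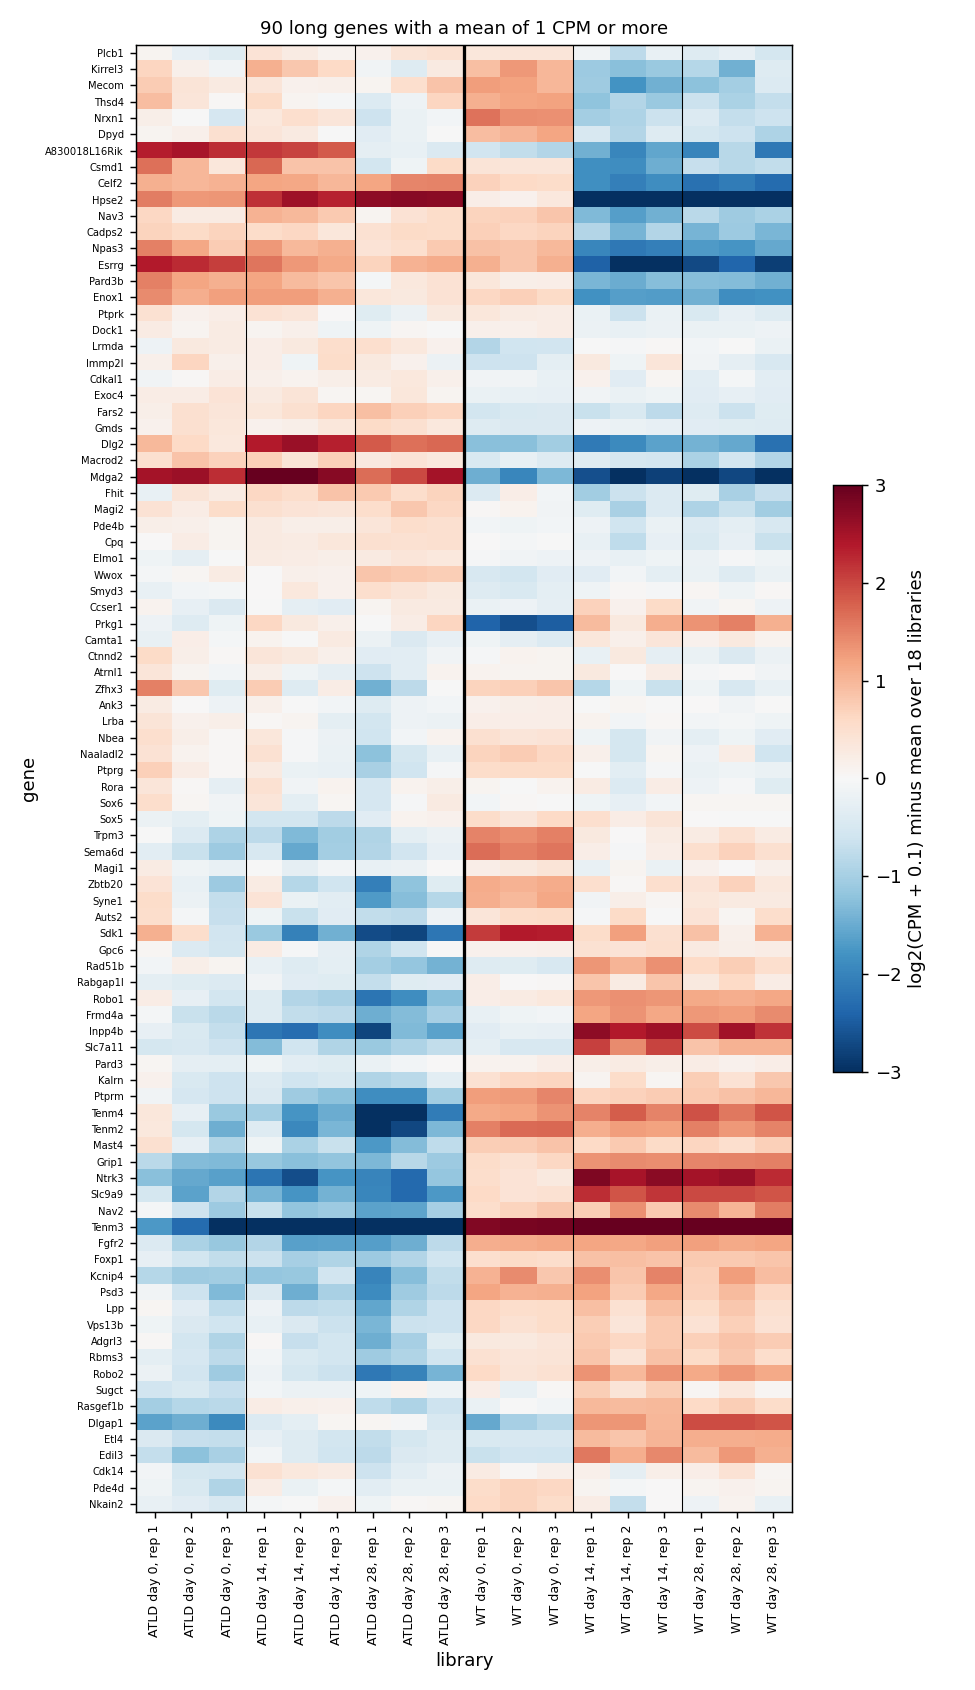
Log2(CPM + 0.1) of 90 of the long genes with a mean of 1 CPM or more in the 18 original libraries, minus each gene's mean, with ATLD libraries left of the thick line and WT libraries right of it. Genes in the upper rows, such as Mdga2, Hpse2 and Celf2, are red in ATLD and blue in WT at the later days, and genes near the bottom, such as Tenm3, Ntrk3 and Etl4, show the reverse.

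In 12 long genes ATLD was lower than WT at day 0 and higher at day 14, and in 1 gene it was higher and then lower, or 9.23% and 0.769% of those tested, against 1.58% and 1.32% of all genes. Without WT day 0 replicate 1, the day 0 call held for 5 of the 12 and for the 1 gene. The 12 include Kirrel3 and Mecom, whose day 0 calls were then lost, at -0.93 ± 0.41 (adjusted p = 0.084) for Kirrel3 and -0.68 ± 0.40 (adjusted p = 0.20) for Mecom. Kirrel3 was at 2.30, 1.60 and 1.32 CPM in ATLD and at 2.75, 3.71 and 2.96 CPM in WT at day 0. At day 14 it was at 3.13, 2.59 and 2.23 CPM in ATLD and at 0.623, 0.542 and 0.610 CPM in WT. The log2 difference was -0.98 ± 0.27 at day 0 (adjusted p = 0.0047), with 2.05 ± 0.29 at day 14 (adjusted p = 6.7e-06). Rad51b was the gene with the reverse order.

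Markers of cell types moved with the groups as well. Luminal progenitor markers (Elf5, Kit, Aldh1a3, Cd14, Csn3 and Ltf) summed to 12680 to 14820 CPM in ATLD at day 0, 8004 to 9715 CPM at day 14 and 24460 to 26570 CPM at day 28. In WT they summed to 8209 to 9172 CPM at day 0, 156 to 176 CPM at day 14 and 199 to 227 CPM at day 28. In ATLD and at WT day 0 most of that sum came from the milk protein genes Csn3 and Ltf. Kit, a receptor of luminal progenitors, had means of 430.3, 336.4 and 234.9 CPM in ATLD at day 0, day 14 and day 28. Basal and myoepithelial markers (Krt5, Krt14, Acta2, Myh11, Trp63 and Oxtr) summed to 3564 to 3917 CPM in ATLD at day 0, 2389 to 2444 CPM at day 14 and 1981 to 2185 CPM at day 28. In WT the same markers summed to 2076 to 2671 CPM at day 0 and 3933 to 9539 CPM at day 14. At day 28 the WT sum was 4538 to 8552 CPM. The sums, mostly Krt5 and Krt14, were lower at the later days in ATLD and higher in WT, but single markers differed. In WT at day 0, day 14 and day 28, Acta2 had means of 282.2, 10.6 and 24.0 CPM. Myh11 had 3.65, 0.303 and 0.354 CPM, Oxtr 90.8, 39.0 and 63.4 CPM and Trp63 124.9, 236 and 196.6 CPM there. In ATLD, Oxtr had 110.1, 162.1 and 240.7 CPM on the same days. Hormone-sensing luminal markers (Esr1, Pgr, Prlr, Foxa1 and Areg) summed to 120.8 to 144.5 CPM in ATLD at day 0, 115.6 to 140.2 CPM at day 14 and 94.1 to 115.1 CPM at day 28, and to 415.6 to 426.3, 229 to 282 and 215.9 to 243.8 CPM in WT. The lower WT sums at the later days came mostly from Prlr, with means of 202.9, 33.2 and 27.4 CPM. Over the same WT days Esr1 had 42.7, 27.8 and 27.8 CPM and Pgr 43.3, 42.0 and 42.55 CPM. Foxa1 had 115.1, 133.6 and 103.1 CPM and Areg 15.5, 27.2 and 27.0 CPM there. Sox10, a factor of glia that is also read in mammary epithelium, was at 378 ± 11.1 CPM in ATLD and 149 ± 24 CPM in WT at day 0, and at 415 ± 59.8 and 4.37 ± 2.18 CPM at day 14 (SD, n = 3 each). The other Schwann and neural markers had group means of 5.16 CPM or less. Fibroblast markers summed to 11.03 to 30.2 CPM in ATLD and 15.9 to 49.8 CPM in WT. The part of these shifts in the long-gene results was not tested.

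Of the long genes, 17 are at known or reported common fragile sites, most of them defined in human cells. In WT at day 14, 9 of the 17 fell and 2 rose, with a median log2 change of -0.48. The 52.9% that fell compares with 15.1% of all genes and 40.8% of all long genes. In ATLD, 1 rose and 1 fell at day 14, or 11.8% called, against 11.7% of all genes. At day 28, 4 rose and 4 fell, or 47.1% called, against 29.8% of all genes and 38.5% of all long genes. ATLD against WT had 6 higher and 3 lower at day 0, or 52.9% called, where 55.6% of all genes were. At each later day it had 8 higher and 3 lower, or 64.7% called. That total lay near the 65.1% of all genes at day 14 and 64.2% at day 28. By direction, 47.1% were higher and 17.6% lower at each later day. Of all genes, 30.1% were higher and 35.0% lower at day 14, and 29.3% and 34.9% at day 28. No difference in direction was tested. Without WT day 0 replicate 1, 4 were higher and 2 lower at day 0.

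Fhit, a diadenosine polyphosphate hydrolase at the best known human fragile site (ENSMUSG00000060579, chromosome 14, 9550092 to 11162035, minus strand), was at 2.09, 3.23 and 2.95 CPM in ATLD at day 0, at 3.81, 3.60 and 4.49 CPM at day 14 and at 4.28, 3.59 and 3.95 CPM at day 28. In WT it was at 1.84, 2.85 and 2.33 CPM at day 0, at 1.14, 1.53 and 1.81 CPM at day 14 and at 1.88, 1.21 and 1.48 CPM at day 28. The genotypes overlapped at day 0 and did not overlap later. The log2 difference between ATLD and WT was 0.14 ± 0.23 at day 0 (adjusted p = 0.63), 1.24 ± 0.23 at day 14 (adjusted p = 0.00013), with 1.19 ± 0.23 at day 28 (adjusted p = 0.00020).

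Wwox, an oxidoreductase with WW domains at another well known site (ENSMUSG00000004637, chromosome 8, 114439655 to 115352708, plus strand), was at 23.3, 25.3 and 28.8 CPM in ATLD at day 0, at 24.4, 27.2 and 26.5 CPM at day 14 and at 43.8, 42.2 and 40.5 CPM at day 28. In WT it was at 17.8 ± 1.23 CPM at day 0, 20.7 ± 2.07 CPM at day 14 and 20.3 ± 1.47 CPM at day 28. It rose in ATLD at day 28 by 0.71 ± 0.11 (adjusted p = 7.4e-05). The difference between the genotypes in this change was 0.52 ± 0.15 (adjusted p = 0.016), and that call was lost without WT day 0 replicate 3, at 0.45.

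Rad51b, which acts in homologous recombination (ENSMUSG00000059060, chromosome 12, 79297282 to 79814690, plus strand), took the opposite course. It was at 7.18, 8.53 and 7.97 CPM in ATLD at day 0, at 6.43, 5.74 and 6.19 CPM at day 14 and at 3.71, 3.35 and 2.75 CPM at day 28. In WT it was at 5.71, 5.88 and 5.38 CPM at day 0, at 19.1, 15.5 and 19.6 CPM at day 14 and at 11.47, 12.7 and 10.7 CPM at day 28. No library of ATLD overlapped WT at any of the 3 days. ATLD was higher by 0.75 ± 0.14 at day 0 (adjusted p = 0.00019) and lower by 1.62 on the log2 scale at day 28, where the difference was -1.62 ± 0.14 (adjusted p = 1.0e-08).

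Other fragile-site genes differed between the genotypes at all days, at none or at 1 day. Macrod2, which removes ADP-ribose from proteins, was higher in ATLD by 1.12 ± 0.16 at day 0, 1.25 ± 0.16 at day 14 and 1.20 ± 0.16 at day 28. Exoc4 was higher by 0.53 ± 0.10, 0.41 ± 0.10 and 0.48 ± 0.10. Auts2, a partner of Polycomb complexes, was lower, at -0.95 ± 0.27, -1.06 ± 0.27 and -1.31 ± 0.27. Rora, an orphan nuclear receptor, did not pass the test at any day, with differences between 0.15 and 0.31. Csmd1, a membrane protein with complement control domains, was higher in ATLD at day 14 alone by this test, at 2.75 ± 0.36, and its ATLD libraries ranged from 11.9 to 22.2 CPM there, against 1.74 to 2.34 CPM in WT.

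**Figure D5:**
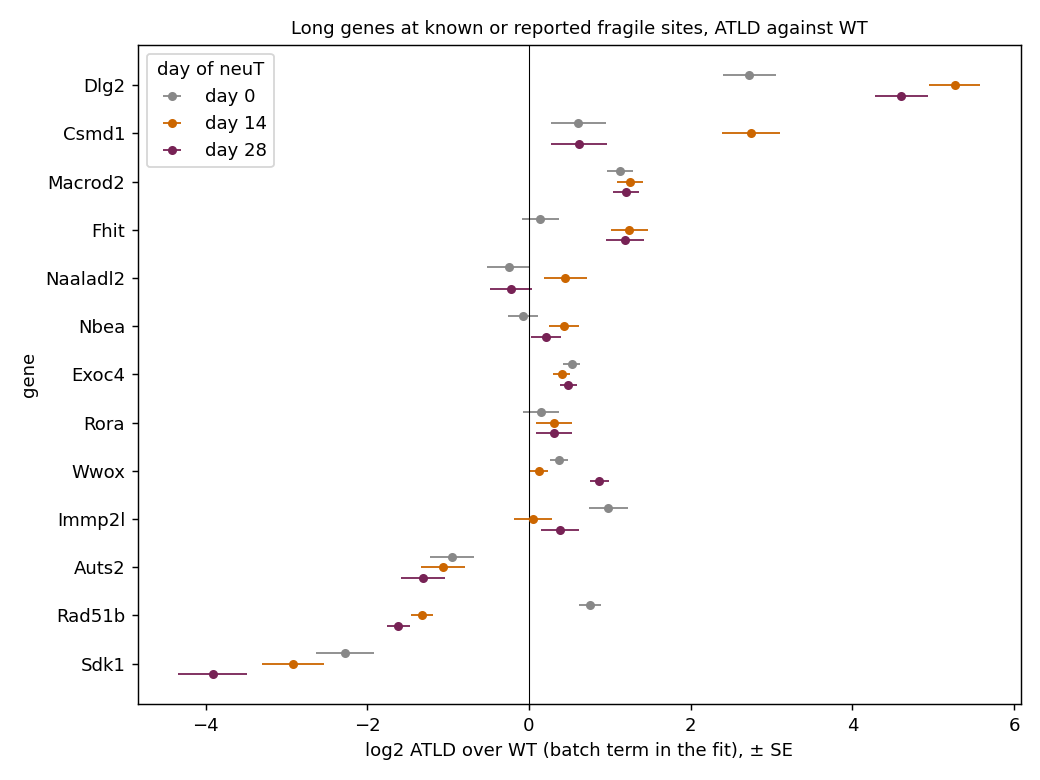
Log2 difference of ATLD over WT with its SE at day 0 (grey), day 14 (orange) and day 28 (purple) for 13 of the long genes at fragile sites with a mean of 1 CPM or more. Dlg2 lies furthest to the right and Sdk1 furthest to the left at every day, and Rad51b crosses from 0.75 at day 0 to -1.32 at day 14.

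Cntnap2, a neurexin-like axonal protein also at a fragile site, was near the limit of detection. It had 17, 26 and 46 counts in ATLD at day 0, day 14 and day 28 and 22, 1 and 0 counts in WT, summed over 3 libraries. It was at least 14.6-fold higher in ATLD at day 28, with 3 counts over the group as the floor. The 4 original libraries with 10 or more counts of this gene were all ATLD libraries. The count floor thus favoured a higher ATLD level here, and this fold only describes the gene.

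Of 53 genes for topoisomerases, elongation factors and enzymes that resolve RNA-DNA hybrids, 2 rose and 3 fell in WT at day 14, and 1 rose and 2 fell at day 28. The shares called were 9.43% and 5.66%, against 30.3% and 24.7% of all genes. In ATLD, 1 rose and 1 fell at day 14, and 4 rose and 8 fell at day 28, or 3.77% and 22.6% called, against 11.7% and 29.8% of all genes. Top2a, the topoisomerase of dividing cells, fell in ATLD by 1.68 ± 0.15 at day 28 (adjusted p = 2.2e-07), and its WT change was -0.10 ± 0.14 (adjusted p = 0.71). Top1, which relaxes DNA ahead of the polymerase, changed by 0.29 ± 0.14 in WT at day 14 and did not pass (adjusted p = 0.12).

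Of 34 genes that replicate and repair fragile sites, 19 fell in ATLD at day 14 and none rose, and 23 fell and 1 rose at day 28, with a median log2 change of -0.98. The shares lower were 55.9% and 67.6%, against 6.49% and 15.7% of all genes, and 15 and 10 genes were not called. In WT, 7 fell and 1 rose at day 14 and 8 fell and 1 rose at day 28, or 20.6% and 23.5% lower, against 15.1% and 12.4% of all genes. Fancd2, the Fanconi protein that marks stressed fragile sites, fell in ATLD by 1.32 ± 0.15 at day 28 (adjusted p = 5.2e-06), and the kinase gene Atr by 1.10 ± 0.16 (adjusted p = 5.1e-05). The difference between the genotypes in the change at day 28 was called for 19 of the 34 (55.9%), against 27.5% of all genes, and in each of these the ATLD value was the lower.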

How the data were processed

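RNA from the organoids was extracted with miRNeasy columns and made into polyA-selected TruSeq stranded mRNA libraries, per the labels' protocols. The authors deposited raw counts per gene, made with featureCounts on mm10, and also named DESeq2, per the submitters' processing notes. Aligner, strand setting and versions are not stated there. The table's gene models matched GENCODE vM21 in all 55536 rows.

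Counts were tested with edgeR 4.0.16 (R 4.3.3), using TMM scaling, filterByExpr and quasi-likelihood tests, with Benjamini-Hochberg adjustment over all genes and a threshold of 0.05. Times and genotype by time used the 18 original libraries (18684 genes), and ATLD against WT used all 21 with a batch term (18844 genes). The report gives the range of total counts in each set of libraries. On simulated data with 200 changed genes, the tests recovered 88% of 2-fold changes for WT day 14 and 48% for genotype by time at day 28. The changed genes were drawn above a floor on level, so these rates do not cover the 39 long genes under 1 CPM. Leave-one-out, DESeq2 1.42.0, GC-corrected and other alternatives were run.

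The long genes, their role lists and the pathway lists were chosen with earlier results of these data known. The genes named were those at fragile sites, the 6 with the highest RPKM and, in each comparison, up to 5 rises and 5 falls called with a mean log2 CPM of 0 or more and no overlap of libraries, where overlap was not asked for genotype by time. A few genes are not reported or plotted here.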

Additional observations from a re-analysis of the deposited data

Results flagged for a closer look

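Results are listed here because the change over time was tested as different between ATLD and WT (edgeR, adjusted over all genes). Such differences numbered 58 long genes at day 14 and 65 at day 28.

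At day 14 the log2 difference of the ATLD change over the WT change was 5.69 for Hpse2, 3.57 for Mdga2, 3.19 for Esrrg, 3.08 for Npas3 and 2.997 for Kirrel3. It was -4.56 for Inpp4b, -3.22 for Ntrk3, -2.84 for Prkg1, -2.72 for Slc7a11 and -2.64 for Tenm3. Among fragile-site genes it was 1.17 for Fhit, 2.80 for Dlg2, 2.25 for Csmd1 and -2.04 for Rad51b. The fitted value of 4.82 for Cntnap2 rests on 1 WT count at day 14 and depends on the prior count.

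At day 28 the difference was 5.08 for Hpse2, 3.84 for Mdga2, 3.19 for Celf2, 2.58 for Esrrg and 2.14 for Mecom. It was -3.91 for Inpp4b, -3.66 for Tenm3, -3.39 for Prkg1, -3.12 for Tenm4 and -2.72 for Slc9a9. Among fragile-site genes it was 1.12 for Fhit, 0.52 for Wwox, 1.85 for Dlg2, -1.68 for Sdk1 and -2.31 for Rad51b. The Mdga2 value rests on 1 WT count at day 28. The Sdk1 call was lost when each of 6 libraries was left out in turn, at -1.26 without ATLD day 0 replicate 1, and the Wwox call without WT day 0 replicate 3, at 0.45.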

How the results depend on the processing

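The share of long genes called kept within 1.5 times its main value under the other settings listed under processing, with 3 exceptions. For single genes, 287 results of named genes were followed over 4188 alternatives. No direction was reversed where the main or the other setting called the gene. A call was lost in 126 alternatives and gained in 59. In ATLD at day 14 the share was 16.9%, but 27.7% with GC correction (all genes 18.8%) and 6.45% for spans of 1 Mb or more. For ATLD against WT at day 0 it was 61.5%, and 38.5% to 63.8% with single replicates left out. The lowest was without both runs of WT day 0 replicate 1. The cause was not tested. Leaving out single replicates gave 50.8% to 60% for WT day 14, 46.2% to 53.1% for WT day 28, 13.8% to 15.4% for ATLD day 14 and 27.7% to 40.8% for ATLD day 28. The replicate numbers did not pair the samples, since same-numbered deviations correlated between -0.31 and 0.32. With a replicate block the shares were 60.8% for WT day 14, 53.1% for WT day 28, 15.4% for ATLD day 14, 34.6% for ATLD day 28, 43.1% and 50% for genotype by time, and 53.1%, 76.2% and 73.8% for ATLD against WT. An alternative chosen after seeing the data set aside the 3 WT libraries low in GC-rich genes. WT day 14 was then left with replicate 2 alone, so no count of calls is given for it. At WT day 28, 72 of 131 long genes were called. The median log2 change of the long genes was -0.37 at day 14, from that 1 library, and -0.33 at day 28. For all genes it was -0.02 and -0.01. Except where stated, the shares of all genes called under these settings are not given here, so the shares above describe the long genes alone. Low counts limit the 39 long genes under 1 CPM.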
